A study of Mus musculus with 8 samples.

Results

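The interferon gamma-induced GTPases and regulators comprised 10 named genes, chosen by gene symbol: Iigp1, Irgm1, Irgm2, Igtp, Ifi47, Gbp2, Gbp3, Gbp7, Irf1 and Socs1. A gene was kept when a probe set of the platform annotation carried its symbol alone, and where it had several such probe sets the one with the highest mean over the arrays was used. This left 6 of the 10 genes, among 19938 genes measured in all. Irgm2, Igtp, Ifi47 and Gbp2 were left out because their probe sets also carry the symbol of a neighbouring or related gene. Levels are deposited log2 values, so a difference of 1 is a 2-fold difference. Of the 6 genes kept, 5 were at or above the array median (5.77 to 5.87 on the log2 scale) on at least 2 arrays and entered the tests with 10673 genes in all. Socs1 was below the median on all 8 arrays and was described only.

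Expression was measured with 1 Affymetrix array for each of 8 groups of mononuclear phagocytes sorted from C57BL/6 mice carrying the Cx3cr1gfp/+ genotype, in which green fluorescent protein replaces 1 copy of the fractalkine receptor gene. All groups, controls included, share that allele. The CX3CR1int arrays came from the colonic lamina propria at day 4 of dextran sodium sulphate (DSS) colitis, as Ly6Clo and Ly6Chi cells. The 4 colonic CX3CR1hi arrays were F4/80hi cells at day 4 of DSS colitis and, at steady state, F4/80hi cells, resident macrophages labelled as reconstituted by monocytes, and resident macrophages. The splenic arrays were Ly6Chi monocytes at day 4 of DSS colitis and at steady state. The labels give no age and no number of mice, and do not say whether animals were pooled or how macrophages were reconstituted. The reconstituted, resident and steady-state splenic samples were labelled female and the other 5 male.

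The steady-state splenic array did not match its label: the Y-linked gene Eif2s3y was at 10.28 there, against 9.78 to 10.43 on the arrays labelled male and 4.34 and 4.36 on the other arrays labelled female. Xist was at 10.04 on that array, 12.28 and 12.17 on the reconstituted and resident arrays and 4.30 to 4.78 on the arrays labelled male. Calls against splenic cells are therefore also given without it, and differences between the states in the spleen cannot be had without it. The 10 macrophage markers averaged 9.29 and 10.13 on CX3CR1int arrays, 11.67 to 11.89 on CX3CR1hi arrays and 9.23 to 9.64 on splenic arrays. Ly6Chi cells of colon and spleen carried the monocyte markers, at 11.31 and 11.82 to 11.83 over 8 genes, whereas the Ly6Clo array averaged 8.86 for these and 9.61 for 9 dendritic cell markers, with Flt3 at 11.16 and Ccr7 at 11.66.

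Interferon gamma, which is made mainly by T cells and natural killer cells, binds the receptor chains Ifngr1 and Ifngr2 and acts through the kinases Jak1 and Jak2. The response runs through gamma-activated sites (GAS) in the DNA, and the induced factor Irf1, with other interferon-regulated factors, binds interferon-stimulated response elements (ISRE). Among the strongest targets in mouse macrophages are the immunity-related GTPases and the guanylate-binding proteins, which gather on vacuoles that hold bacteria or parasites, while Socs1 blocks the kinases and limits the response. The human relative IRGM is a known susceptibility gene for Crohn's disease.

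Promoter stretches of 5 members are shown because both DNA elements of this pathway can be read in them. They are RefSeq promoter windows of build GRCm38.p6, reaching from 250 bases before to 50 after a transcription start, cut here to the matches with their flanks, on the strand of the gene. Capitals mark matches of TTCNNNGAA (GAS) or of GAAANNGAAA (ISRE), searched on both strands, and where 2 ISRE matches overlap they form 1 run of capitals. Iigp1 is named only.
Irf1 (chr11:53769894-53769962, plus strand): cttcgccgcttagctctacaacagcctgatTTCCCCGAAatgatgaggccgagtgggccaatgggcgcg
Gbp7 (chr3:142530200-142530322, plus strand): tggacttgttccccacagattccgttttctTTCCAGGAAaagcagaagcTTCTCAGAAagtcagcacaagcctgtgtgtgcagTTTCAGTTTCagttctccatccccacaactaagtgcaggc
Gbp3 (chr3:142559969-142560044, plus strand): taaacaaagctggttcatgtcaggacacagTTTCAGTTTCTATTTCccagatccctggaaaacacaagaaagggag
Irgm1 (chr11:48871405-48871480, minus strand): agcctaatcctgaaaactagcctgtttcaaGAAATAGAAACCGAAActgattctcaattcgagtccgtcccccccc
Socs1 (chr16:10785574-10785649, minus strand): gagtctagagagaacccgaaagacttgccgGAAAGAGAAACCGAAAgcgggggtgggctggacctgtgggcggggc

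The Irf1 stretch holds 1 GAS match, 90 bases upstream of the start. Gbp7 has GAS matches 106 and 87 bases upstream and an ISRE match at 53 bases. Overlapping ISRE matches begin 45 and 39 bases upstream of Gbp3, 30 and 24 bases upstream of Irgm1, and 83 and 77 bases upstream of Socs1. GAS matches were thus found in 2 and ISRE matches in 4 of the 7 windows of these 5 members, while 8.3% and 3.44% of all 32851 windows hold them. The members were named as interferon-induced genes, so these shares are no test. A match describes the letters of the window and is not a measured binding site, and the second windows of Gbp3 and Irf1 held neither.

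**Figure D1:**
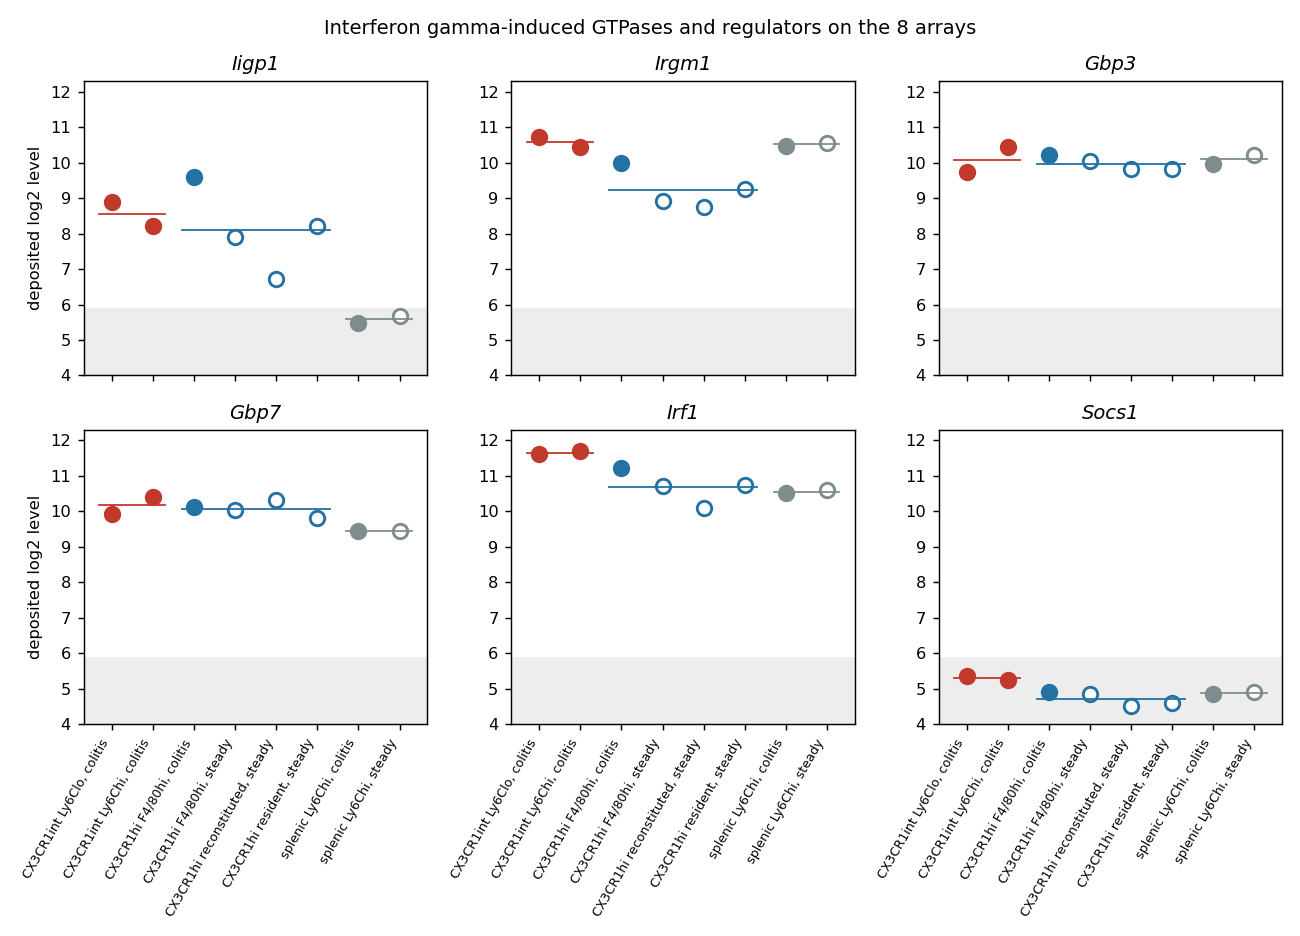
Deposited log2 level of each of the 6 genes (y axis) on the 8 arrays (x axis), 1 point per array, with CX3CR1int in red, CX3CR1hi in blue and splenic cells in grey. Filled points are colitis and open points steady state, horizontal lines are population means, and grey shading ends at the highest array median, 5.87. Iigp1 fell inside the shading on both splenic arrays, and Socs1 on all 8.

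Iigp1, an effector GTPase that coats and disrupts the vacuoles of intracellular parasites, varied most of the 5 genes tested. Its log2 level was 8.89 in Ly6Clo and 8.20 in Ly6Chi CX3CR1int cells. On the CX3CR1hi arrays it was 9.60 in colitis F4/80hi, 7.89 in steady-state F4/80hi, 6.71 in reconstituted and 8.21 in resident cells, and in the spleen it was 5.48 in colitis and 5.67 at steady state. All 6 colonic arrays lay above both splenic arrays, whereas CX3CR1int and CX3CR1hi arrays overlapped. In descending order, gaps larger than its within-population SD of 0.95 separated only steady-state F4/80hi from reconstituted cells and reconstituted cells from both splenic arrays. Its range over arrays, 4.12, exceeded that of 95.9% of the genes tested, whose median range was 0.98.

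Irgm1, the regulatory GTPase that sits on the cell's own membranes and restrains effectors such as Iigp1, followed a different order. It was at 10.73 in Ly6Clo and 10.44 in Ly6Chi CX3CR1int cells. In CX3CR1hi cells it was 9.99 in colitis F4/80hi, 8.92 in steady-state F4/80hi, 8.74 in reconstituted and 9.26 in resident cells, and splenic monocytes had 10.48 in colitis and 10.56 at steady state. Every CX3CR1int and splenic array lay above every CX3CR1hi array, and the colitis array came nearest. The CX3CR1int and splenic arrays lay within 0.29 of each other, less than the within-population SD of 0.44, whereas the steps down to colitis F4/80hi (0.45) and from there to resident cells (0.73) exceeded it.

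Irf1, the induced transcription factor that carries the signal on to other targets, was at 11.62 in Ly6Clo and 11.70 in Ly6Chi CX3CR1int cells. It was at 11.23, 10.73, 10.10 and 10.74 in colitis F4/80hi, steady-state F4/80hi, reconstituted and resident CX3CR1hi cells, and at 10.52 in colitis and 10.61 in steady-state splenic monocytes. Both CX3CR1int arrays were above the other 6, and CX3CR1hi and splenic arrays overlapped. As with Iigp1 and Irgm1, the reconstituted array was the lowest of the colonic arrays.

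The guanylate-binding protein genes among the members tested, Gbp7 and Gbp3, varied less. Gbp7, which in mouse macrophages helps to assemble the phagocyte oxidase, was at 9.93 in Ly6Clo and 10.42 in Ly6Chi CX3CR1int cells. CX3CR1hi cells had 10.13 in colitis F4/80hi, 10.05 in steady-state F4/80hi, 10.31 in reconstituted and 9.81 in resident cells, and splenic monocytes had 9.45 in colitis and 9.44 at steady state. All colonic arrays thus lay above both splenic arrays, with a gap of 0.36 against a within-population SD of 0.22. Gbp3 was at 9.73 and 10.43 in Ly6Clo and Ly6Chi CX3CR1int cells, at 10.22, 10.05, 9.82 and 9.81 on the CX3CR1hi arrays in the same order, and at 9.97 in colitis and 10.22 at steady state in splenic monocytes. Its 3 populations overlapped fully, no neighbouring gap exceeded its SD of 0.28, and its range of 0.70 was larger than that of 30.1% of the genes tested. Guanylate-binding protein genes are similar in sequence, and how far their probes respond to each other was not tested.

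Socs1, the feedback inhibitor, had 5.36 in Ly6Clo and 5.26 in Ly6Chi CX3CR1int cells. It had 4.90, 4.84, 4.52 and 4.60 on the CX3CR1hi arrays in the same order, and 4.85 in colitis and 4.92 in steady-state splenic monocytes. The CX3CR1int arrays were the highest, but every value was below the array median.

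The first comparison asked how the genes differed between the CX3CR1int cells of the inflamed colon and the CX3CR1hi macrophages. Irgm1 and Irf1 were higher in CX3CR1int cells, while Iigp1, Gbp3 and Gbp7 did not pass the test. Irgm1 averaged 10.59 ± 0.20 (SD, n = 2) in CX3CR1int and 9.22 ± 0.55 (SD, n = 4) in CX3CR1hi cells, a log2 fold change of 1.36 ± 0.32 (SE), or 2.57-fold (limma, adjusted p = 0.0175). Irf1 averaged 11.66 ± 0.05 and 10.70 ± 0.46 over the same arrays, a log2 fold change of 0.95 ± 0.27 (adjusted p = 0.0319). The other 3 had log2 fold changes of 0.44 for Iigp1 (95% interval -1.11 to 1.99), 0.11 for Gbp3 (-0.40 to 0.61) and 0.10 for Gbp7 (-0.32 to 0.53). Thus 2 of 5 members were called higher and 0 lower, where 13.3% of all genes were called higher and 16.6% lower, and the median log2 fold change was 0.44 over the members and 0.01 over all genes tested. The arrays of a population are not repeats of 1 condition: they differ in state, origin, Ly6C or sex, so p-values measure only the spread between these arrays, part of which may be technical.

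Both CX3CR1int arrays came from colitis and male mice, and no CX3CR1int array came from steady state or from a female, so population, colitis and sex cannot be told apart within it. With colitis as a term Irgm1 had a log2 fold change of 0.93 (adjusted p = 0.131) and Irf1 one of 0.67 (adjusted p = 0.22), and with labelled sex as a block they had 1.22 (adjusted p = 0.0569) and 0.79 (adjusted p = 0.0944), so both calls were lost. Leaving out the Ly6Clo array also ended the Irgm1 call (log2 fold change 1.22, adjusted p = 0.0722), and leaving out any array other than colitis F4/80hi or reconstituted ended that of Irf1 (adjusted p = 0.056 to 0.0854). Irf1 has a second, dimmer probe set, and with both averaged its log2 fold change was 0.72 (adjusted p = 0.0251). Within colitis, set against the single F4/80hi array, Irgm1 differed by 0.74 in Ly6Clo and 0.45 in Ly6Chi cells and Irf1 by 0.39 and 0.47 on the log2 scale.

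In CX3CR1int against splenic cells, Iigp1, Irf1 and Gbp7 were called higher and Irgm1 and Gbp3 did not pass the test. Iigp1 averaged 8.54 ± 0.48 (SD, n = 2) in CX3CR1int and 5.58 ± 0.13 (SD, n = 2) in splenic cells. Its splenic level was below the array median on both arrays, and the gene entered the test only through its 6 colonic arrays, so a difference from the spleen was a condition of its being tested. With the splenic arrays taken at their medians, which average 5.79, it was at least 6.74-fold higher in CX3CR1int cells, and limma gave an adjusted p of 0.0298 among the genes past the filter and of 0.0507 with no filter. Irf1 had a log2 fold change of 1.09 ± 0.31 (SE, adjusted p = 0.0386) and Gbp7 one of 0.73 ± 0.21 (adjusted p = 0.041). Irgm1 differed by 0.07, with an interval of -0.79 to 0.93, and Gbp3 by -0.01, with an interval of -0.60 to 0.57. The members called, Iigp1 included, were 3 of 5 higher and 0 lower, against 10.2% and 14.2% of all genes, with a median log2 fold change of 0.73 over the members and -0.08 over all genes tested. All 3 calls were lost with colitis as a term, with labelled sex as a block, without the brightness filter (adjusted p = 0.0507 to 0.0587), without either splenic array, where the adjusted p lay between 0.132 and 0.18, and without steady-state F4/80hi cells. Leaving out Ly6Clo cells ended the calls of Iigp1 and Irf1, leaving out Ly6Chi cells those of Gbp7 and Irf1, leaving out resident cells that of Irf1 and leaving out colitis F4/80hi cells that of Gbp7.

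Between CX3CR1hi and splenic cells, which exist in both states, Iigp1 and Gbp7 were higher and Irgm1 lower in CX3CR1hi cells. Iigp1 averaged 8.10 ± 1.19 (SD, n = 4) in CX3CR1hi and 5.58 ± 0.13 (SD, n = 2) in splenic cells. Against the medians of the splenic arrays it was at least 4.97-fold higher, under the same condition as above, with an adjusted p of 0.0151 from limma among the genes past the filter and of 0.0292 with no filter. Gbp7 averaged 10.07 ± 0.21 and 9.45 ± 0.00 on these arrays, a log2 fold change of 0.63 ± 0.18 (SE, adjusted p = 0.0221). Irgm1 averaged 9.22 ± 0.55 in CX3CR1hi and 10.52 ± 0.06 in splenic cells, a log2 fold change of -1.29 ± 0.32 (adjusted p = 0.0115). Gbp3 and Irf1 differed by -0.12 (interval -0.63 to 0.38) and 0.14 (interval -0.48 to 0.76). Iigp1 included, these were 2 of 5 members higher and 1 lower, where 22.2% of all genes were called higher and 29% lower, with a median of 0.14 over the members and -0.12 over all genes tested. The 3 calls held with colitis as a term and with labelled sex as a block. The block takes the steady-state splenic array as female, which its sex-linked genes did not match, so it is no check on sex. All 3 calls were lost without either splenic array, where 1 splenic array remained.

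These differences had the same direction in each state. Colitis F4/80hi cells exceeded colitis splenic monocytes by 4.12 for Iigp1 and 0.68 for Gbp7, with Irgm1 at -0.49. Resident cells against steady-state splenic monocytes differed by 2.54 for Iigp1, 0.36 for Gbp7 and -1.31 for Irgm1, and both Iigp1 values count from splenic levels below the array median. In sorted bulk samples, fewer cells that express a gene and less of its RNA per cell cannot be told apart.

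**Figure D2:**
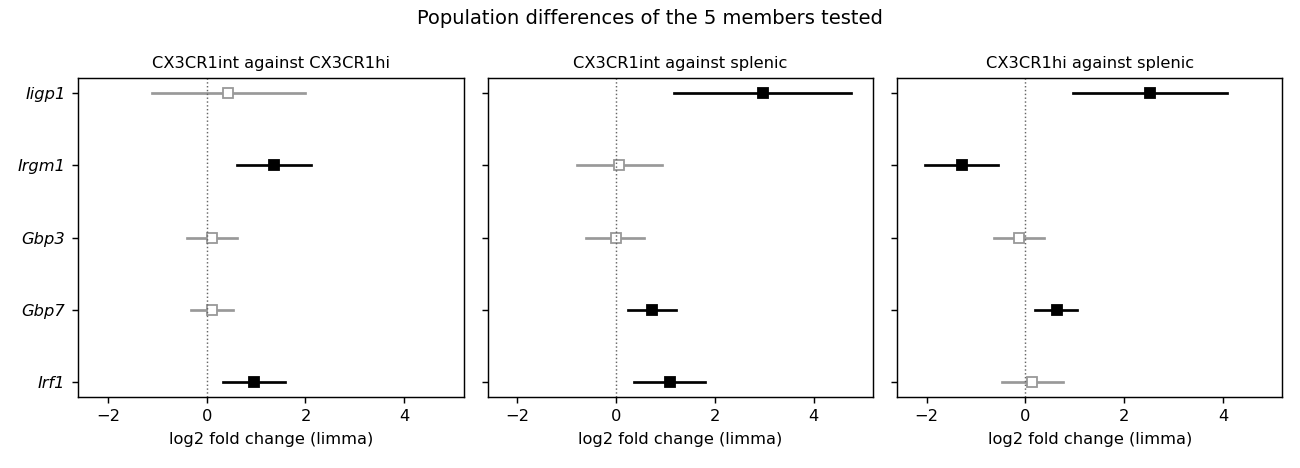
Log2 fold changes from limma (x axis, first population minus second) of the 5 members tested (y axis), with lines for 95% intervals and black squares for adjusted p under 0.05. Irgm1 was higher in CX3CR1int than in CX3CR1hi cells (1.36) and lower in CX3CR1hi than in splenic cells (-1.29), whereas Iigp1 and Gbp7 were higher in both colonic populations than in splenic cells. The Iigp1 points against splenic cells use splenic levels below the array median and are no measured ratios.

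Genes of other cell types moved with these contrasts. All 16 epithelial markers were called higher in CX3CR1hi than in splenic cells. In splenic monocytes 0 of them reached the array median at steady state and 6 in colitis, so none entered the test through splenic arrays alone. Their mean level was 9.37 and 9.51 on CX3CR1int arrays, 10.54 to 11.38 on CX3CR1hi arrays and 5.03 to 5.83 on splenic arrays. Stromal and endothelial markers averaged 6.96 to 7.70 on CX3CR1int, 6.58 to 7.66 on CX3CR1hi and 5.52 to 5.53 on splenic arrays, and B and plasma cell markers 7.07 to 8.43, 6.81 to 7.64 and 6.08 to 6.60 on the same arrays. The 14 T and natural killer cell markers measured averaged 5.38 to 5.76 on CX3CR1int, 4.97 to 5.13 on CX3CR1hi and 4.91 to 5.02 on splenic arrays, and 1 to 3 of them reached the array median on any array. The defining markers Cd3d and Ncr1 were at most at 4.44 and 4.64 and so below the median on all 8 arrays. Cd4, which mouse gut macrophages can also carry, was at 5.64 and 5.68 on CX3CR1int arrays, 10.16 to 10.80 on CX3CR1hi arrays and 5.28 and 5.32 on splenic arrays. Klrd1, which some dendritic cells also express, was at 10.70 and 8.27 in Ly6Clo and Ly6Chi CX3CR1int cells, and Tbx21 was at 8.71 in Ly6Clo cells and at 4.80 to 5.46 on the other arrays. Gzmb was at 5.75 and 6.24 and Nkg7 at 5.92 and 6.31 on the same CX3CR1int arrays, against 4.36 to 4.60 and 4.68 to 4.87 on CX3CR1hi arrays. Dendritic cell markers averaged 7.74 to 9.61, 6.06 to 6.42 and 6.83 to 6.89, and neutrophil markers 5.16 to 5.93, 5.02 to 5.22 and 5.93 to 6.02. The part of these cells in the differences between populations was not tested. Among the CX3CR1hi arrays the epithelial mean was 11.38 on the resident, 10.86 on the reconstituted, 10.58 on the steady-state F4/80hi and 10.54 on the colitis F4/80hi array. The colitis array, where Iigp1, Irgm1 and Irf1 were highest, had the highest stromal and B and plasma cell means, 7.66 and 7.64. The part of such cells in the levels of these 3 genes was not tested.

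Of the other 9 interferon-inducible GTPases measured, 4 were called higher in CX3CR1hi than in splenic cells, as Iigp1 was, and 2 lower, as Irgm1 was. Of all genes tested, 22.2% were called higher and 29% lower. Called or not, 6 of the 9 GTPases had a positive log2 fold change. Gbp4 and Gbp8 were higher in CX3CR1hi than in splenic cells by 3.01 and 3.33 on the log2 scale (limma, adjusted p = 0.000174 and 0.000372). Gbp2b and Gm4951, a further immunity-related GTPase, were below the array median on both splenic arrays and, like Iigp1, entered the test only through their 6 colonic arrays. Against the splenic medians they were at least 18.2-fold and 6.41-fold higher in CX3CR1hi cells (adjusted p = 2.95e-05 and 0.00279, and 8.58e-05 and 0.0061 with no filter). Gbp9 and Gm12250, the gene of a GTPase that acts on bacterial membranes, were lower by -0.74 and -1.71 (adjusted p = 0.0245 and 0.00305), as Irgm1 was. Gbp5, Gbp11 and Gm4841 did not pass. Without the steady-state splenic array 4 of 9 were higher and 1 lower, and the call of Gbp9 was lost (adjusted p = 0.199). In CX3CR1int against CX3CR1hi cells, Gbp5, which is known for activating the NLRP3 inflammasome, Gm12250 and Gbp9 were higher by 1.71, 1.62 and 0.90 (adjusted p = 0.00563 to 0.0208), and Gbp2b was lower by -3.36 (adjusted p = 0.00045). Gbp4, Gbp8 and Gbp5 were higher in CX3CR1int than in splenic cells, by 3.40, 2.78 and 1.12 (adjusted p = 0.000858 to 0.0471). Gbp2b was at least 1.77-fold higher than the splenic medians (adjusted p = 0.0444, and 0.0688 with no filter), and Gm4951 did not pass (adjusted p = 0.0566). Without the steady-state splenic array only Gbp4 and Gbp8 of the 9 were called in that contrast, and with colitis as a term 0 were higher and 1 lower in CX3CR1int against CX3CR1hi cells.

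**Figure D3:**
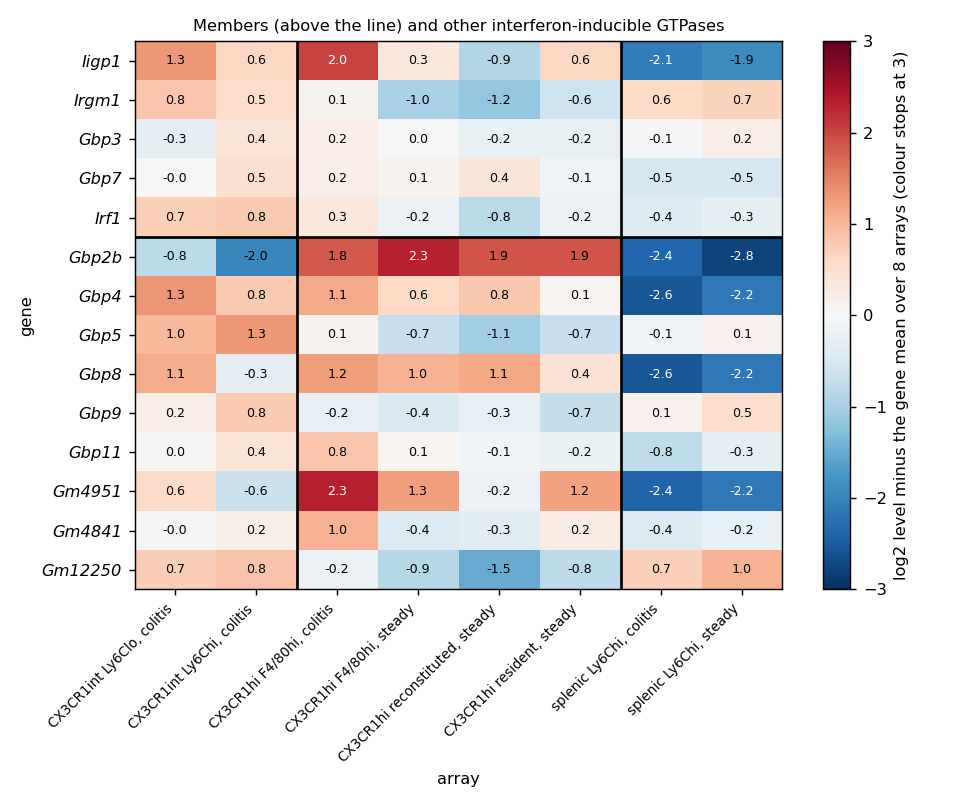
Log2 level of each GTPase and of Irf1 minus its own mean over the 8 arrays, with arrays in columns and genes in rows, red above and blue below the mean. The members stand above the horizontal line and vertical lines part CX3CR1int, CX3CR1hi and splenic arrays. Iigp1, Gbp4, Gbp8 and Gm4951 were lowest on both splenic arrays, while Irgm1, Gbp5 and Gm12250 were lowest on steady-state CX3CR1hi arrays.

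Of the signalling chain, Ifng itself stayed between 4.53 and 5.13 on all 8 arrays, below every array median. Ifngr1 was lower in CX3CR1hi than in splenic cells (log2 fold change -0.66, adjusted p = 0.00185) and higher in CX3CR1int than in CX3CR1hi cells (0.43, adjusted p = 0.0225). Jak2 was at 11.55 and 10.81 in Ly6Clo and Ly6Chi CX3CR1int cells, at 9.12 to 9.33 on CX3CR1hi arrays and at 9.80 and 9.91 on splenic arrays. It was thus higher in CX3CR1int cells than in CX3CR1hi cells by 1.96 (adjusted p = 0.00068) and than in splenic cells by 1.32 (adjusted p = 0.00705), and lower in CX3CR1hi than in splenic cells (-0.63, adjusted p = 0.0308). Ciita, the switch for class II antigen presentation, was higher than in splenic cells in both CX3CR1int (1.63, adjusted p = 0.00971) and CX3CR1hi cells (1.26, adjusted p = 0.00599). Ifngr2, Jak1 and Irf8, a myeloid factor that partners Irf1, passed in none of these 3 contrasts. Of 13 pathway genes tested, 5 were higher and 0 lower in CX3CR1int against CX3CR1hi cells, where 13.3% and 16.6% of all genes were. In CX3CR1int against splenic cells 4 were higher and 0 lower, where 10.2% and 14.2% were. In CX3CR1hi against splenic cells 2 were higher and 4 lower, where 22.2% and 29% of all genes were. Without the steady-state splenic array the counts against splenic cells were 0 and 0 for CX3CR1int and 2 and 2 for CX3CR1hi cells. Of the calls against splenic cells named here, those of Ifngr1 and Ciita in CX3CR1hi cells remained (adjusted p = 0.0226 and 0.0409), while those of Jak2 in CX3CR1hi (0.166), Jak2 in CX3CR1int (0.0525) and Ciita in CX3CR1int cells (0.0684) were lost. With colitis as a term 2 were higher in CX3CR1int than in CX3CR1hi cells, as were 405 of 10673 genes tested.

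Other known targets of interferon gamma were described by the same test. In CX3CR1int against CX3CR1hi cells 10 of 22 were higher and 1 lower, where 13.3% and 16.6% of all genes were. Among those higher were Acod1, the enzyme that makes itaconate (log2 fold change 2.92, adjusted p = 0.0143), and the chemokine Cxcl11 (2.34, adjusted p = 0.00372). So were the immunoproteasome subunit Psmb9 (1.41, adjusted p = 0.0175) and the peptide transporter Tap1 (1.33, adjusted p = 0.00827). In CX3CR1int against splenic cells 8 were higher and 0 lower, where 10.2% and 14.2% of all genes were. In CX3CR1hi against splenic cells 4 were higher and 7 lower, near the shares of all genes, 22.2% and 29%. The checkpoint ligand Cd274 (2.26, adjusted p = 7.01e-05) and the chemokine Cxcl9 (1.88, adjusted p = 0.00228) were higher and Xaf1 lower (-2.04, adjusted p = 0.000383). The median log2 fold changes of the 22 were 0.72, 0.45 and -0.11 in these contrasts, and 0.01, -0.08 and -0.12 over all genes tested. Of 10673 genes tested, 405 were higher and 567 lower in CX3CR1int than in CX3CR1hi cells with colitis as a term. With colitis as a term 2 were higher in CX3CR1int than in CX3CR1hi cells, and without the steady-state splenic array 3 were higher in CX3CR1int than in splenic cells, while 4 were higher and 1 lower in CX3CR1hi than in splenic cells.

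Genes best known for induction by type I interferon were, like Irgm1, lower in CX3CR1hi than in splenic cells and higher in CX3CR1int than in CX3CR1hi cells. Of 22 tested, 0 were higher and 19 lower in CX3CR1hi than in splenic cells, where 22.2% and 29% of all genes were. Oas3 was at -3.96 (adjusted p = 3.85e-05) and Irf7 at -2.40 (adjusted p = 0.000174). In CX3CR1int against CX3CR1hi cells 16 were higher and 0 lower, where 13.3% and 16.6% of all genes were. Here Oas3 was at 2.70 (adjusted p = 0.000725) and Mx1, which blocks influenza virus in mice, at 2.01 (adjusted p = 0.00363). In CX3CR1int against splenic cells 0 were higher and 3 lower, where 10.2% and 14.2% of all genes were. The medians were -1.48, 1.04 and -0.43 in the order given. Of 10673 genes tested, 405 were higher and 567 lower in CX3CR1int than in CX3CR1hi cells with colitis as a term. Without the steady-state splenic array 17 were lower in CX3CR1hi and 0 in CX3CR1int than in splenic cells, and with colitis as a term 6 were higher in CX3CR1int than in CX3CR1hi cells.

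Autophagy proteins place these GTPases on vacuoles, and the vacuoles they open expose bacteria to inflammasome sensors. Among 12 autophagy genes, 1 was higher and 3 lower in CX3CR1hi than in splenic cells, a smaller share than the 22.2% and 29% of all genes, with the cargo receptor Sqstm1 at 0.92 (adjusted p = 0.000689) and Atg16l1, needed to load GTPases onto vacuoles, at -0.63 (adjusted p = 0.00241). In CX3CR1int against CX3CR1hi cells 3 were higher and 1 lower, where 13.3% and 16.6% of all genes were, and in CX3CR1int against splenic cells 1 was higher and 0 lower, where 10.2% and 14.2% were. Of 9 inflammasome genes, 2 were higher and 4 lower in CX3CR1hi than in splenic cells, including Il1b (2.56, adjusted p = 3.67e-05) and the nucleic acid sensor Zbp1 (-1.60, adjusted p = 0.00104). In CX3CR1int against CX3CR1hi cells 2 were higher and 0 lower, where 13.3% and 16.6% of all genes were. In CX3CR1int against splenic cells 2 were higher and 1 lower, where 10.2% and 14.2% of all genes were. With so few genes, these counts describe the lists and set neither apart from all genes. Without the steady-state splenic array 1 autophagy gene was higher and 3 lower in CX3CR1hi than in splenic cells and 0 were called in CX3CR1int against splenic cells. For the inflammasome genes the counts without it were 2 higher and 2 lower in CX3CR1hi and 1 higher and 0 lower in CX3CR1int against splenic cells. The calls named above for Cd274, Cxcl9, Xaf1, Oas3, Irf7, Sqstm1, Atg16l1, Il1b and Zbp1 in CX3CR1hi against splenic cells remained without it (adjusted p = 0.000311 to 0.0262).

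The next comparison asked what differed in colitis within a population. In CX3CR1hi F4/80hi cells, Iigp1 was at 9.60 in colitis and 7.89 at steady state, a difference of 1.71 or 3.27-fold, and Irgm1 was at 9.99 in colitis and 8.92 at steady state, a difference of 1.07 or 2.10-fold. Irf1, Gbp3 and Gbp7 differed by 0.50, 0.17 and 0.08. With 1 array a state these differences have no replicate check. At least 2-fold higher were 2 of 5 members and 1.23% of all genes in this pair, and the median difference over all genes was 0.10.

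Against all 3 steady-state CX3CR1hi arrays, the colitis array lay above the highest for 4 of the 5 members tested. The excess over the highest steady-state array was 1.39 for Iigp1, 0.73 for Irgm1, 0.48 for Irf1 and 0.17 for Gbp3, and Gbp7 lay inside the steady-state range. Of all genes tested, 34.2% lay above all 3 arrays. With the arrays centred on their medians the members above were again these 4, and the share of all genes was 23.5%. The other GTPases lay above in 8 of 9, the known targets in 16 of 22 and the genes of type I interferon in 20 of 22. Pathway genes lay above in 9 of 13, autophagy genes in 9 of 12 and inflammasome genes in 3 of 9. Stromal markers lay above in 7 of 9 and B and plasma cell markers in 6 of 7, T and natural killer cell markers in 2 of 3, dendritic cell markers in 4 of 7, monocyte markers in 3 of 8 and epithelial markers in 0 of 16, and their part in the result was not tested. Ifng was at 4.69 in colitis F4/80hi cells and at 4.53 to 4.68 on the steady-state CX3CR1hi arrays.

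The splenic pair rests on the steady-state array whose sex-linked genes did not match its label, and there is no other steady-state splenic array to set in its place. In splenic monocytes Irgm1 had 10.48 in colitis and 10.56 at steady state, and the differences of the 4 members bright enough lay between -0.25 for Gbp3 and 0.00 for Gbp7, with Irf1 at -0.10. None of the 4 reached 2-fold, where 0.708% of all genes did in either direction. Iigp1 differed by -0.19, with both arrays below their medians.

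Over all arrays, limma with population and state as terms gave a colitis effect of 1.12 ± 0.60 (SE) for Iigp1, 0.58 ± 0.28 for Irgm1, 0.38 ± 0.26 for Irf1, 0.10 ± 0.24 for Gbp3 and 0.05 ± 0.20 for Gbp7 on the log2 scale. It called 0 of 5 members and 0% of all genes (adjusted p = 1.0 for each member), and 138 of 10673 genes, none of them a member, had an unadjusted p under 0.05. Without the colitis F4/80hi array only the splenic cells hold both states. The effects were then the differences of the splenic pair, -0.19 for Iigp1, -0.08 for Irgm1 and -0.10 for Irf1. The positive direction thus came from that single colitis array, which follows from the design and is no separate check. Without the steady-state splenic array only the CX3CR1hi cells hold both states. The effects were then those of the colitis array against the mean of the 3 steady-state CX3CR1hi arrays. They were 2.00 for Iigp1, 1.02 for Irgm1, 0.70 for Irf1, 0.33 for Gbp3 and 0.08 for Gbp7. The colitis effect in CX3CR1hi minus that in splenic cells was 2.19 ± 0.98 for Iigp1, 1.10 ± 0.42 for Irgm1, 0.80 ± 0.48 for Irf1, 0.57 ± 0.48 for Gbp3 and 0.07 ± 0.46 for Gbp7. This difference could not be fitted without either splenic array. Limma again called 0 of 5 members and 0% of all genes (adjusted p = 1.0), and 129 genes, of the members Irgm1 alone, had an unadjusted p under 0.05.

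**Figure D4:**
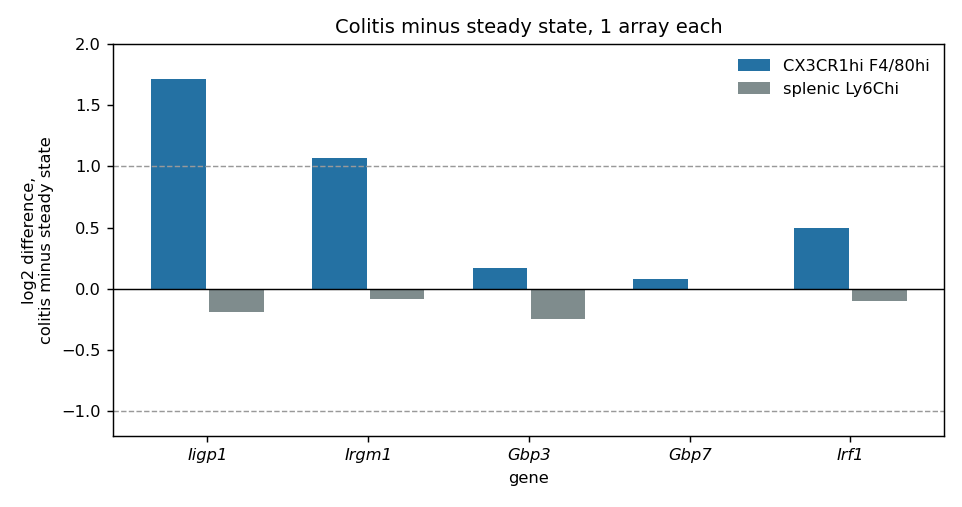
Log2 level in colitis minus that at steady state (y axis) for the 5 members tested (x axis), in CX3CR1hi F4/80hi cells in blue and splenic monocytes in grey, from 1 array a state without error bars. Dashed lines mark 2-fold, which Iigp1 (1.71) and Irgm1 (1.07) passed in F4/80hi cells.

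Within the inflamed colon, Iigp1 was lower in Ly6Chi CX3CR1int cells than in F4/80hi cells by -1.40, the only one of 5 members at least 2-fold apart, where 14.4% of all genes were. In Ly6Clo against F4/80hi cells 0 of 5 members were that far apart, against 19.1% of all genes, with Iigp1 at -0.71 and Irgm1 at 0.74. Between Ly6Clo and Ly6Chi cells 0 of 5 were, against 12% of all genes, with Iigp1 at 0.69 and Gbp3 at -0.70. These arrays had no replicates.

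Among steady-state CX3CR1hi cells, Iigp1 was at 6.71 in reconstituted and 8.21 in resident cells, lower by -1.51 or 2.84-fold. It was the only one of 5 members at least 2-fold lower, where 1.09% of all genes were, and Irf1 and Irgm1 differed by -0.64 and -0.52 while Gbp7 differed by 0.50. Both arrays were labelled female. Steady-state F4/80hi against resident cells had 0 of 5 members 2-fold apart, against 3.64% of all genes, with differences between -0.34 for Irgm1 and 0.25 for Gbp7.

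The mean of the 6 members kept, each centred on its own mean, was 0.50 in Ly6Clo and 0.53 in Ly6Chi CX3CR1int cells. It was 0.47, -0.13, -0.51 and -0.14 in colitis F4/80hi, steady-state F4/80hi, reconstituted and resident CX3CR1hi cells, and -0.42 in colitis and -0.30 in steady-state splenic monocytes. The levels were not scaled, so Iigp1, with a range of 4.12 against 0.70 to 2.00 for the other members, weighs most. Splenic Iigp1 lay below the array median, whereas Irgm1 was at 10.48 and 10.56 in splenic monocytes, above its mean of 9.89. The low splenic values are thus not shared by all members, and the likeness below carries the same weighting. Among 3324 genes with an SD over arrays of at least 0.5, the named genes most like this profile by Pearson correlation over the 8 arrays were BC023105 and Ccl5 (both 0.92), Ctla4 and Mgp (both 0.90), AI504432 and Igfbp5 (both 0.88) and Ccdc80 and Rgs5 (both 0.87). Ccl5, a chemokine among the known targets listed, was at 11.52 and 10.17 in Ly6Clo and Ly6Chi CX3CR1int cells. It was at 10.47, 9.41, 8.03 and 9.50 on the CX3CR1hi arrays in the order above, and at 8.57 and 8.19 in colitis and steady-state splenic monocytes. Mgp, a matrix protein gene, was at 6.65 and 7.28, at 7.03, 6.12, 6.10 and 6.06, and at 5.55 and 5.57 on the same arrays. Stromal and endothelial markers averaged 7.66 in colitis F4/80hi cells and 6.58 to 7.06 on steady-state CX3CR1hi arrays. Their part in the profile was not tested. The arrays share populations and tissue, so these correlations describe the 8 arrays only.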

How the data were processed

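The authors deposited log2 values of 35399 probe sets on 8 arrays. Per the submitters' processing notes RMA and Partek were used. RMA subtracts background, forces the probe values of all arrays to 1 distribution and reduces each probe set to 1 value, so a shift shared by most genes is removed. Versions, settings and genome build are not given in the sources used here. The labels name no replicates, and the number of arrays limits the precision.

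Of the probe sets, 21789 carried 1 gene symbol, 1621 several, and 11989 were not listed in the annotation. The first gave 19938 genes, and of 999 genes with more than 1 probe set the brightest was used. The members and the 14 companion lists (191 gene names) were chosen with earlier results of these data known. Companions were named by rule: up to 4 called genes of each list with the largest change per contrast, the receptor and kinase genes, and the 8 genes most like the members. Markers and single values named beyond this were chosen after their values were seen.

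Genes at or above the array median on at least 2 arrays (10673) entered linear models in limma 3.58.1 (lmFit and eBayes, under R 4.3.3), with Benjamini-Hochberg adjustment over all of them at 0.05. All 8 arrays shared 1 spread, with 5 residual degrees of freedom for populations, 4 with colitis as a term and 3 for the difference between colitis effects. The fits were tested on simulated data. Single arrays were compared without a test where the brighter was at or above its median. Python 3.11.15, pandas 2.3.3 and numpy 2.4.6 did the rest. Alternatives were other brightness filters, averaging a gene's probe sets, median centring, repeated quantile normalization, a trended and robust prior, labelled sex as a block, colitis as a term, the compared populations alone, another steady-state array and leaving out each array. Alternatives for the comparison with all 3 steady-state CX3CR1hi arrays were added after seeing the data.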

Additional observations from a re-analysis of the deposited data

Results flagged for a closer look

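Within the 4 CX3CR1hi arrays, 97 genes were checked for 1 array standing apart, by the ratio of its gap to the nearest array to the whole range, with a critical value of 0.829. None of the 6 members was flagged, and the other populations were not checked. Iigp1 had a ratio of 0.48, although its colitis F4/80hi array lay 1.39 above and its reconstituted array 1.18 below the nearest one. An array at each end widens the range and lowers the ratio. Chance flags about 1 in 20 such groups, and 4 were flagged. Gbp2b, the related GTPase, had a ratio of 0.855, with 10.30 in steady-state F4/80hi cells and 9.83 to 9.89 on the other 3 arrays. Aim2, a DNA sensor, had a ratio of 0.858, with 10.16 in colitis F4/80hi cells and 9.83 to 9.87 on the others. Cd209a, a dendritic cell marker, had a ratio of 0.881, with 5.45 in reconstituted cells and 7.86 to 8.18 on the others. Mgp, a matrix protein gene and 1 of the 8 genes most like the members, had a ratio of 0.939, with 7.03 in colitis F4/80hi cells and 6.06 to 6.12 on the others.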

How the results depend on the processing

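With 1 array a group, single-array differences carry no error, and Socs1, Ifng and splenic Iigp1 lay below the array median, where small differences cannot be read. No paired analysis was possible because the labels give no replicate numbers. In 385 comparisons of a tested member with an alternative, 321 kept direction and side of the threshold, 44 kept direction and lost a call and 20 reversed, and none of the 20 was a called value. The cause of the changes was not tested. CX3CR1int against CX3CR1hi: 0 members called with labelled sex as a block and with colitis as a term and 1 with both populations alone, against 2 in the report, with 1992 and 972 genes called in the first 2 settings against 3185. CX3CR1int against splenic: 0 members called without the filter, with the sex block and with the colitis term, against 3, with 1643 genes called under the colitis term and 1092 with both populations alone, against 2605. CX3CR1hi against splenic: 3505 genes called with the 75th percentile filter, against 5466. Leaving out 1 array gave 0 to 3 members and 3119 to 6386 genes in that contrast, 0 to 2 members and 2394 to 3634 genes for CX3CR1int against CX3CR1hi, and 0 to 3 members and 619 to 3732 genes for CX3CR1int against splenic. The lowest gene counts against splenic cells came without the steady-state splenic array, 619 and 3119, and without the colitis one, 877 and 3306. For the difference between colitis effects a trended and robust prior called 1 gene, against 0, and it could not be fitted without colitis F4/80hi or either splenic array. Colitis against steady-state F4/80hi had 1 member 2-fold apart, Iigp1, under repeated quantile normalization or against the resident array, against 2. Ly6Chi and Ly6Clo cells against colitis splenic monocytes had 1 each when a gene's probe sets were averaged, against 2. Reversed values were, for CX3CR1int against CX3CR1hi, Iigp1 at -0.40 (colitis term); for CX3CR1int against splenic, Gbp3 at 0.04 (quantile) and Irgm1 at -0.07 (sex block) and -0.22 (colitis term); and for colitis, Gbp7 at -0.0041 (median centring) and Gbp3 at -0.01 (sex block). Leave-one-out ranges of members that reversed were, for CX3CR1hi against splenic, -0.25 to 0.00036 for Gbp3 and -0.04 to 0.34 for Irf1. For CX3CR1int against CX3CR1hi they were -0.02 to 0.94 for Iigp1, -0.24 to 0.46 for Gbp3 and -0.14 to 0.35 for Gbp7, and for CX3CR1int against splenic -0.36 to 0.34 for Gbp3 and -0.08 to 0.21 for Irgm1. For colitis they were -0.19 to 2.00 for Iigp1, -0.08 to 1.02 for Irgm1, -0.25 to 0.33 for Gbp3, -0.03 to 0.12 for Gbp7 and -0.10 to 0.70 for Irf1, and for the difference between colitis effects -0.05 to 0.20 for Gbp7.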
